A study of Mus musculus with 2 samples.

Results

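Promyelocyte-like cells were 1230 of the 11761 bone marrow barcodes kept from 2 single-cell libraries, 713 of 7252 in the library labelled control (Ctrl) and 517 of 4509 in the library labelled Map4k4-cko (cKO). They were chosen by their own RNA: a barcode was kept with 200 to 9000 detected genes, at most 30% mitochondrial UMIs and at least 2000 UMIs, and a kept barcode was taken when Elane, Prtn3, Mpo and Ctsg together made up at least 2% of its UMIs and Camp, Ngp and Ltf together less than 2%. A UMI is a molecular tag that counts 1 captured RNA molecule once. Because measured values chose these cells, every level of a gene in them against the other barcodes is a description with no test.

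Each library came from mouse marrow at 13 to 14 weeks of age, in which c-Kit+ progenitors enriched with magnetic beads were mixed at 2 parts to 3 with marrow cells freed of red cells, so the share of a progenitor type is partly set by the mixing. The cKO mice carried Mx1-Cre and Map4k4 f/f, and poly I:C was injected weeks earlier to delete the floxed alleles. Mx1-Cre is switched on by interferon and acts in blood cells of all lineages and in other tissues, not only in neutrophil precursors. The Ctrl mice were Mx1-Cre littermates on the same C57BL/6 background. The study's methods write their genotype as Map4k4-/-, which could not be reconciled here with their use as controls, and do not say whether they were injected. The sources used here do not give the number of mice behind a library, and with 1 library for each condition there was no replicate and no test between conditions. Intervals below are exact 95% intervals that cover counting error only.

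Promyelocytes are the stage of neutrophil development at which the azurophil, or primary, granules are filled with serine proteases and myeloperoxidase. They arise from granulocyte-monocyte progenitors, still divide, and are followed by myelocytes, which stop making primary granule proteins and load secondary granules with lactoferrin, cathelicidin and lipocalin. In mouse single-cell work the cells that bridge the progenitor and the myelocyte are called proNeu cells. The primary granule genes are therefore transcribed during a short window and their proteins stay in the cell for the rest of its life.

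The rule rests on 4 genes that lie at 3 loci in the mouse genome (GRCm38). Elane, which codes for neutrophil elastase (chromosome 10, 79886247 to 79888215), and Prtn3, which codes for proteinase 3 (chromosome 10, 79874476 to 79883174), are neighbours on chromosome 10, and Prss57, a further serine protease of the same granules (chromosome 10, 79781474 to 79790961), lies near them. Mpo, the myeloperoxidase gene, is at chromosome 11, 87793581 to 87804413, and Ctsg, the cathepsin G gene, at chromosome 14, 56099881 to 56102574. Their start regions are shown because the rule rests on these 4 genes. Each window runs from 250 bases before to 50 bases after the RefSeq transcript start (GRCm38.p6), written 5′ to 3′ on the strand of the gene, and capitals mark the letters AGGAAGT, which hold the GGAA core that ETS family factors such as PU.1 bind.
Elane, chr10:79886062-79886361, plus strand: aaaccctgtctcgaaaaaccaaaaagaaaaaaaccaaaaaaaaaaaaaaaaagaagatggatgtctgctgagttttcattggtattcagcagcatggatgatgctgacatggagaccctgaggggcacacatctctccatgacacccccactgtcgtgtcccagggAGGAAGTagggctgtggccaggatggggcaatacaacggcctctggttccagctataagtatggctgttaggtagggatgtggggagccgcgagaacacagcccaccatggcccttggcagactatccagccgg
Prtn3, chr10:79879417-79879716, plus strand: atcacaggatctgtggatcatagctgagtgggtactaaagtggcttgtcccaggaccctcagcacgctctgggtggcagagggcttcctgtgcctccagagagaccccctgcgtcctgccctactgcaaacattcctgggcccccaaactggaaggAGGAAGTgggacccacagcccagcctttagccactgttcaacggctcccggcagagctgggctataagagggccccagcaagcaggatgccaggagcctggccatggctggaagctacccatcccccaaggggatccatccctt
Mpo, chr11:87793534-87793833, plus strand: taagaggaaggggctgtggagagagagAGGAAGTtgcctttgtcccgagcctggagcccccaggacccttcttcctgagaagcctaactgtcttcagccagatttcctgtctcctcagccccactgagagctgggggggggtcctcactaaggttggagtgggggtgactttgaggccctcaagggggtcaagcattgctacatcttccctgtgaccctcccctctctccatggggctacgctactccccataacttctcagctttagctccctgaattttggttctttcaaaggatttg
Ctsg, chr14:56102525-56102824, minus strand: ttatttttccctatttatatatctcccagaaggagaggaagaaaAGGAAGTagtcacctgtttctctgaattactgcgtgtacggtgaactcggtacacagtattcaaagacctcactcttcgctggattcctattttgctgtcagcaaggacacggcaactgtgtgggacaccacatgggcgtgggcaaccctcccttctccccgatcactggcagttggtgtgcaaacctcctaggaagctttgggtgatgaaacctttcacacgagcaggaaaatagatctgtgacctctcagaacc
Each of the 4 windows held AGGAAGT once, counting both strands, as did 9.35% of the 32851 windows in the table. These letters were chosen after the windows had been read, and a match is a description, not a binding site. Of 3 further motifs searched on both strands, TTGCNNCAA (2.08% of all windows) and TTNNGNAA (40.7%) were in none of the 4 windows, and AACNG was in all of them and in 80.3% of all windows. The window of Ms4a3, the fifth marker gene, did not hold AGGAAGT.

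The marker genes of the label were high in both libraries. In each pair of values in this report the library labelled Ctrl comes first and the library labelled cKO second, and CPM are the counts per 1e+06 of a gene in the summed UMIs of the cells named. Elane reached 12713 and 16059 CPM in the promyelocyte-like cells, against 1114 and 1131 CPM in the other kept barcodes. Mpo stood at 12075 and 11829.6 CPM (others 1354 and 653 CPM). Prtn3 reached 8726 and 11983 CPM (others 946 and 986 CPM), and Ctsg reached 4027 and 6456 CPM (others 307 and 240.4 CPM). Ms4a3, which codes for a membrane protein of granulocyte-monocyte progenitors and was not used by the rule, stood at 1866 and 2120.1 CPM (others 216 and 211 CPM). After each cell was thinned to 2000 UMIs, an Ms4a3 UMI was found in 94.4% (92.4 to 96.0) and 95.6% (93.4 to 97.2) of the cells, against 7.91% of 468 and 2 of 40 barcodes with at least 5 Cd79a and Cd79b UMIs, B-lineage cells that should lack it. Ms4a3, the marker outside the rule, thus went with the label in both libraries.

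Granule RNA was also counted in cells that should lack it. Elane UMIs were found in 44.7% of the 468 and in 10 of the 40 thinned Cd79-positive barcodes (median 4107.5 and 11274 UMIs before thinning), and the 4 rule genes made up 0.149% and 0.107% of their UMIs. In the promyelocyte-like cells, whose median depth was 17521 and 23784 UMIs, the 4 genes made up 3.75% and 4.63%. The other kept barcodes held a median of 5812 and 9735.5 UMIs, so the promyelocyte-like cells were also the deeper ones, with a median of 4185 and 4408 detected genes. Camp, Ngp and Ltf, by contrast, had a median share of 0.123% and 0.0841% in the promyelocyte-like cells, below the 0.344% and 0.148% of the Cd79-positive barcodes. Immunoglobulin genes took 11.7% and 49.8% of the pooled UMIs of these barcodes, so as a background they were not alike in the 2 libraries. Whether they were of different B-lineage stages was not tested.

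**Figure D1:**
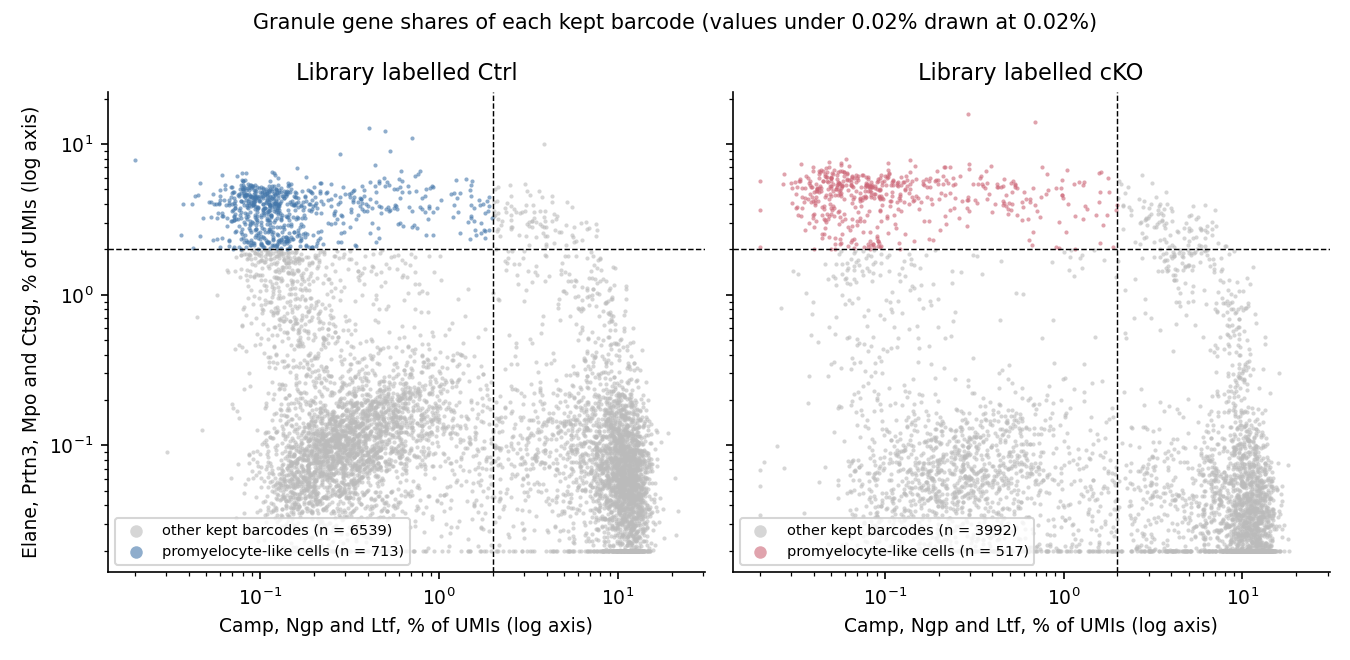
Each point is 1 kept barcode, with the summed share of UMIs of Camp, Ngp and Ltf on the x axis and of Elane, Prtn3, Mpo and Ctsg on the y axis, both in percent on log axes, and dashed lines mark the 2% thresholds. The promyelocyte-like cells (713 and 517, coloured) lie mostly under 0.5% on the x axis, and a band of barcodes crosses both thresholds at the upper right.

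The edges of the set were populated, so it is a range and not an isolated cluster. Within 0.1 percentage points above the primary granule threshold lay 21 and 16 cells, and within the same distance under it 28 and 9 barcodes. At the secondary granule ceiling 3 and 2 cells lay just inside and 7 and 3 just outside. A further 93 and 99 barcodes passed 2% on both axes and were left out, as the plot of granule shares shows. The nearest values were 2.007% and 2.000% inside and 1.993% and 1.989% outside the primary threshold. Nothing in these counts marks a gap at 2%.

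Before any comparison the 2 libraries were checked for shared barcodes: 3010 barcode sequences were deposited in both, 2259 were kept in both and 54 were promyelocyte-like in both. Cells with the same sequence were no more alike than others, with a median correlation of -0.0347 over 3667 genes against -0.00253 for other pairs. Left out, these 54 sequences moved the share of promyelocyte-like cells from 9.83% to 9.16% and from 11.5% to 10.4%. Map4k4, the targeted gene, was not lower in the library labelled cKO: its level in the promyelocyte-like cells was 14.0 and 21.9 CPM, a log2 ratio of 0.64 (95% interval 0.36 to 0.91). In the other kept barcodes it was 83.5 and 74.7 CPM (log2 ratio -0.16). The reads come from the 3′ end of transcripts and need not fall in the deleted part, so this level does not check the deletion, and the conditions are named by their labels throughout.

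Around the 4 rule genes stood further genes of the primary granule and its cargo. Of 15 other genes listed for these granules and for the promyelocyte stage, 11 were past 2-fold higher than in the other kept barcodes in both libraries and 1 was past 2-fold lower. Over all 2828 genes with at least 50 CPM on 1 side in each library, 7.57% were past 2-fold higher and 10.2% past 2-fold lower, and since the rule used this contrast nothing is read from the difference. Srgn, which codes for serglycin, the proteoglycan that packs cationic proteases into granules, stood at 3618 and 4617 CPM (others 472 and 553 CPM). Nkg7, best known from the granules of cytotoxic lymphocytes, reached 1119.9 and 1556 CPM (others 127 and 114 CPM). Cst7, the gene of the protease inhibitor cystatin F, reached 311 and 388 CPM (others 36.9 and 29.3 CPM). Plac8, an abundant transcript of myeloid progenitors, stood at 5158 and 5435 CPM (others 1231 and 901 CPM), and Prss57 at 341 and 415 CPM (others 44.2 and 48.2 CPM). Lyz2, the lysozyme gene, was the 1 past 2-fold lower, at 377 and 449 CPM (others 5710.1 and 10819 CPM); its protein is stored in all granules and its RNA keeps rising in later neutrophils.

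The 10 genes with the highest ratios to the other kept barcodes outside the rule were led by Dmkn, the dermokine gene, at 149 and 305 CPM against 12.2 and 17.7 CPM. Its log2 ratios were 3.61 and 4.11. Nkg7, Ms4a3, Cst7, Gstm1, Prss57 and Srgn followed, and with Rgcc they made 7 of the 10 on the list for granules and the promyelocyte stage. That list was chosen with earlier results of these data known, so this overlap is a description and lends the label no support. B4galt6, a galactosyltransferase of glycolipid synthesis, reached 229 and 191 CPM (others 33.1 and 35.0 CPM). Vat1 completed the 10. At the other end were genes of plasma cells (Igkc, Jchain, Ighg2c), of red cell precursors (Car1), of basophils (Prss34), of monocytes (Fn1), of antigen-presenting cells (Cd74) and of late neutrophils (Ly6g, Plbd1, AA467197), which is a list of the other cells in the marrow. Ly6g, the surface marker of mature mouse neutrophils, was at 10.5 and 10.0 CPM in the promyelocyte-like cells and 209 and 480.2 CPM in the others.

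Later granule genes were low. Of 16 measured genes of the secondary granule list outside the rule, 13 were past 2-fold lower than in the other kept barcodes and none past 2-fold higher. Over all genes tested, 10.2% were past 2-fold lower and 7.57% higher. Lcn2, the lipocalin gene, stood at 299.5 and 336 CPM (others 5438 and 11626 CPM), and Chil3 at 262 and 164 CPM (others 3214 and 3664 CPM). Fcnb, the ficolin gene of immature neutrophils, was an exception at 576 and 575 CPM (others 502 and 564 CPM). Of 14 measured gelatinase granule and late neutrophil genes, 10 were past 2-fold lower and none higher, against the same shares over all genes. S100a8, which codes for a subunit of calprotectin, still took 10776 and 11624 CPM of the promyelocyte-like cells, against 55024 and 103125 CPM in the others and 10389.8 and 18321 CPM in the Cd79-positive barcodes. That level lay near or under the one in the Cd79-positive barcodes but above the 2455 and 1662 CPM of the moderate primary granule progenitors described below. Retnlg, a late neutrophil gene, was at 175 and 190.3 CPM (others 3059.6 and 8550.1 CPM). Mmp8, the neutrophil collagenase gene, was at 22.5 and 15.1 CPM (others 427 and 993 CPM).

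**Figure D2:**
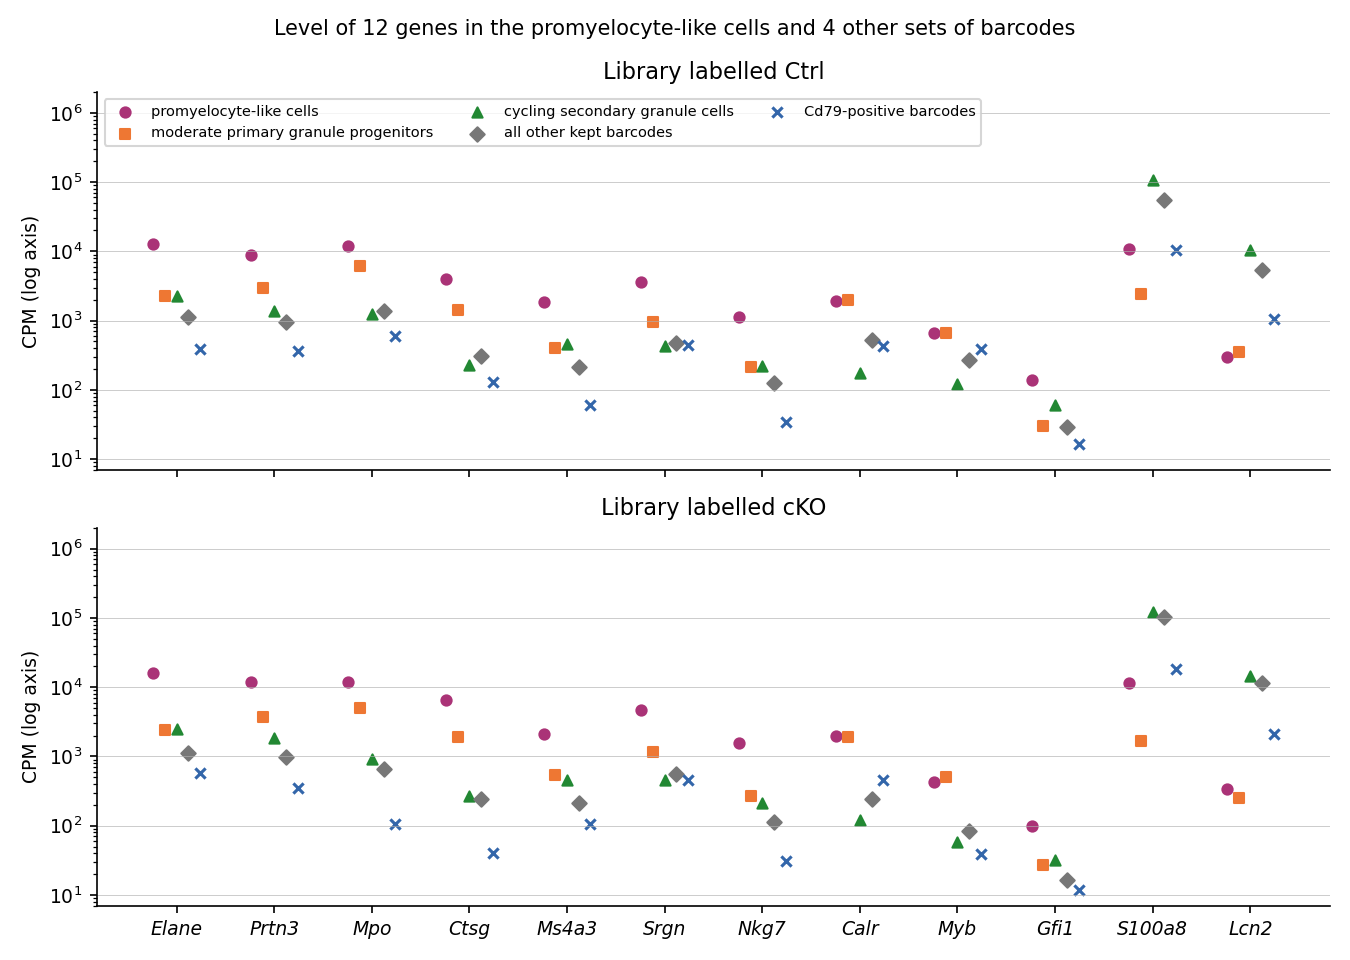
Level of 12 genes in CPM (log axis) in the promyelocyte-like cells and in 4 other sets of barcodes, with 1 panel for each library and 1 marker shape for each set. The 4 rule genes, Ms4a3, Srgn, Nkg7 and Gfi1 are highest in the promyelocyte-like cells in both panels, while S100a8 and Lcn2 are highest in the cycling secondary granule cells.

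Genes of protein entry and folding in the endoplasmic reticulum were also high. Of 38 measured genes, 26 were past 2-fold higher than in the other kept barcodes in both libraries and none lower. Over all genes tested, 7.57% were past 2-fold higher and 10.2% lower. The median log2 ratio of the list was 1.14 and 1.87 against 0.25 and 0.60 over all genes tested. Together they took 1.55% and 1.62% of the UMIs of the promyelocyte-like cells and 0.635% and 0.426% of those of the others. Calr, the gene of the chaperone calreticulin, stood at 1915 and 1981 CPM (others 519 and 247 CPM). Hspa5, which codes for the chaperone BiP, stood at 1005 and 841 CPM (others 329 and 159 CPM), and Pdia3, a disulfide isomerase, at 816 and 781 CPM (others 292 and 172 CPM). Sec61b, a subunit of the channel through which secretory proteins enter, reached 1308 and 1509.6 CPM (others 454 and 387 CPM). The other kept barcodes include many mature cells, so the comparison with the moderate primary granule progenitors, given below, bears more closely on this group.

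Ribosomal protein genes took 26.6% and 30.1% of the UMIs, against 14.9% and 10.9% in the other kept barcodes. All 16 measured ribosome biogenesis genes and 16 of 17 translation factors had ratios above 0 in both libraries, though only 4 and 0 of them passed 2-fold. Over all genes tested, 7.57% were past 2-fold higher. Their median log2 ratios were 0.61 and 1.60 and 0.56 and 1.37, against 0.25 and 0.60 over all genes tested. Npm1, which codes for the nucleolar protein nucleophosmin, stood at 1477 and 1412 CPM (others 1034 and 462 CPM). Alas1, the first enzyme of haem synthesis in non-erythroid cells, stood at 612 and 589 CPM (others 120.4 and 152 CPM), and was the 1 gene of 9 on the haem list that reached 50 CPM in both libraries and passed 2-fold. Mpo is a haem protein.

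Among regulators, factors of both progenitors and committed neutrophils were found. Gfi1, a repressor needed for the neutrophil over the monocyte fate, stood at 137 and 97.7 CPM (others 29.3 and 16.6 CPM). In thinned cells a Gfi1 UMI was found in 23.4% and 21.1%, against 4.70% of the Cd79-positive barcodes of the library labelled Ctrl. No such background share is given here for the library labelled cKO. Cebpe, needed for secondary granules, was at 187 and 194 CPM, below the 546 and 550.4 CPM of the cycling secondary granule cells. Cebpa, the gene of the factor that starts the granulocyte programme, was at 58.7 and 44.9 CPM (others 23.0 and 12.9 CPM). Myb, a progenitor factor, stood at 660.3 and 426 CPM (others 267 and 83.3 CPM), Kit, the stem cell factor receptor, at 118 and 64.4 CPM (others 69.5 and 22.8 CPM) and Cd34 at 49.9 and 34.8 CPM (others 53.2 and 19.8 CPM). Of 17 listed stem and progenitor genes, 3 reached the level needed in both libraries, and all 3 had ratios above 0. Gata2 and Meis1, which mark earlier progenitors, lay at 5.79 and 2.46 CPM and 6.33 and 3.92 CPM.

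Among receptors, Ifngr1, which codes for a chain of the interferon gamma receptor, was at 439 and 339 CPM (others 114 and 88.5 CPM). Csf3r, the receptor for the neutrophil growth factor G-CSF, was at 122 and 103 CPM (others 203 and 328 CPM). Vcam1, an adhesion ligand usually thought of in stroma and macrophages, was at 137 and 74.6 CPM (others 31.8 and 12.4 CPM), while the macrophage genes C1qa, C1qb and C1qc were at no more than 1.39 CPM in either library. Mt1, a metallothionein gene, was at 554 and 796 CPM (others 136 and 115 CPM). The retention receptor Cxcr4 was at 73.2 and 63.9 CPM (others 102 and 111 CPM), and the egress receptor Cxcr2 at 18.1 and 14.8 CPM (others 123 and 317 CPM). Csf3r, Cxcr4 and Cxcr2 were thus lower than in the other barcodes in both libraries.

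Summed over each list, markers of red cells, plasma cells, B cells, megakaryocytes, dendritic cells and of mast cells, eosinophils and basophils lay lower in the promyelocyte-like cells than in the other kept barcodes in both libraries, while those of T and NK cells, monocytes and macrophages lay higher. The 12 erythroid markers summed to 499 and 30.4 CPM (others 4649 and 1983 CPM), and Hbb-bs, the leading one in the library labelled Ctrl, had 202 and 6.08 CPM. In that library 61.6% of the 5896 haemoglobin UMIs lay in 3 of the 713 cells, and the highest single cell held 2210. The 10 plasma cell markers summed to 756 and 296 CPM, led by Igkc and Xbp1. The 11 B markers summed to 54.9 and 35.6 CPM, of which Cd79b gave 36.6 and 31.9 CPM, while Cd79a was at 3.55 and 0.231 CPM and Rag1 at 0. The 13 T and NK markers summed to 1124 and 1558 CPM, of which Nkg7 alone gave 1119.9 and 1556 CPM, and Cd3e was at 0 in both libraries. The 11 monocyte markers summed to 3030 and 2767 CPM (others 2194 and 2257 CPM), of which Ly6c2, a close copy of Ly6c1 whose reads the counting could split, gave 2596 and 2386 CPM, while Fn1 was at 4.71 and 3.62 CPM and Csf1r at 24.2 and 23.0 CPM. The 9 macrophage markers summed to 193 and 116 CPM (others 126 and 109 CPM), of which Vcam1 gave 137 and 74.6 CPM and C1qa 1.39 and 0.231 CPM, while C1qb, C1qc and Cd5l were at 0 in the library labelled cKO. Megakaryocyte markers summed to 15.6 and 7.08 CPM. Single cells with at least 5 Cd79a and Cd79b UMIs numbered 2 and 10. Doublets were not removed, and their part in these values was not tested.

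The cells were not uniform in their granule genes. The share of Elane ran from 0.109% to 3.26% of a cell's UMIs with a median of 1.25% in the library labelled Ctrl, and from 0.276% to 4.03% with a median of 1.58% in the library labelled cKO. For Mpo the medians were 1.21% and 1.20%, with single cells as high as 10.2% and 7.43%, and 6 and 2 cells held at least 4%. For Prtn3 the medians were 0.875% and 1.20%, and for Ctsg 0.376% and 0.627%. Cells with more Mpo than Elane UMIs, counted at 3′ ends and so without a length term, were 378 of 713 (53.0%) and 163 of 517 (31.5%). The 4 genes thus did not keep one ratio from cell to cell or from library to library.

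Within the thinned cells, Elane went with Prtn3 more closely than with the other rule genes. Spearman's rho over the 713 and 517 cells was 0.585 and 0.560 for Elane with Prtn3, 0.364 and 0.446 for Elane with Ctsg, and 0.287 and 0.313 for Elane with Mpo. Elane and Srgn had a rho of 0.539 and 0.516. Calr had a rho of -0.255 and -0.171 with Elane, of -0.144 and -0.081 with Prtn3 and of -0.354 and -0.306 with Fcnb. With Ctsg its rho was 0.065 and 0.225, and with Mpo 0.075 and 0.084. Cells of 1 library share its free RNA and the rule bounds the sum of the 4 genes from below, so these values describe the cells and carry no test.

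Along the share of Camp, Ngp and Ltf the promyelocyte-like cells were cut into 3 bins: under 0.1% (226 and 304 cells), 0.1 to under 0.5% (397 and 148) and 0.5 to under 2% (90 and 65). The edge at 0.1% lies under the median share of the Cd79-positive barcodes (0.344% and 0.148%), so free RNA can move a cell across it, and bins are compared only within a library. Elane changed by less than 2-fold from the lowest to the highest bin, with log2 ratios of 0.33 and 0.31, as did Prtn3, with 0.07 and 0.06. Ctsg was lower at the far end, with 4572 and 6725 CPM in the lowest, 3839 and 6535 CPM in the middle and 2757 and 3970.0 CPM in the highest bin. Mpo had log2 ratios of 0.10 and -0.09. The proteases of the primary granule thus did not move together over this range.

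Of 2616 genes measured in both end bins, 2.91% were past 2-fold higher in the highest bin in both libraries and 2.29% past 2-fold lower. Since the bins are cut on part of the rule, these counts are a description. Of 13 measured secondary granule genes outside the rule, 11 were past 2-fold higher at the far end and none lower, and of 8 gelatinase and late genes 4 were higher and none lower. S100a8 stood at 5739 and 4837, 9852 and 21404 and 37726 and 46003 CPM from the lowest to the highest bin (each pair again Ctrl, then cKO). Fcnb stood at 347 and 244, 516 and 1108 and 1905 and 2117 CPM, Chil3 at 122 and 78.3, 247 and 245 and 954 and 700.1 CPM, and Cybb, the gene of the catalytic subunit of the phagocyte oxidase, at 93.0 and 81.8, 127 and 182 and 372 and 289 CPM. Each of these 4 genes was lowest in the first bin and highest in the third in both libraries. Id2 and Itgb2, an inhibitor of transcription factors and the common chain of the leukocyte integrins, had log2 ratios of 2.26 and 2.68 and 2.02 and 2.44. Haemoglobin genes took 0.0158% of UMIs in the lowest and 0.324% in the highest bin of the library labelled Ctrl. That highest bin held 3818 haemoglobin UMIs, of which 2210 lay in 1 cell, so its share does not describe the typical cell. In the library labelled cKO haemoglobin genes took 0.0018% and 0.0019%. The part of red cell RNA in the ratios between bins was not tested.

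Most measured genes of the biosynthesis lists had lower levels in the highest bin, few of them past 2-fold. All 16 measured ribosome biogenesis genes, all 17 translation factors and 35 of 38 endoplasmic reticulum genes had ratios under 0 in both libraries, although only 3, 0 and 0 of them were past 2-fold lower. Their median log2 ratios were -0.86 and -0.96, -0.44 and -0.53, and -0.30 and -0.60, against -0.17 and -0.21 over all genes. The reticulum list took 1.62% and 1.72% of the UMIs in the lowest bin and 1.23% and 1.11% in the highest. Mif, a cytokine gene, had log2 ratios of -1.46 and -1.62, Gnl3, the nucleostemin gene, -1.36 and -1.92, and Pdcd4, which codes for an inhibitor of translation initiation, -1.96 and -2.49. Irf8, the monocyte fate factor, stood at 117 and 113 CPM in the lowest bin and 15.3 and 22.1 CPM in the highest. These are pooled sums, and Irf8 was concentrated in the monocyte-leaning cells described below, at 619 and 470 CPM. The other promyelocyte-like cells held 23.6 and 21.4 CPM. The part of the leaning cells in the Irf8 ratio between bins was not tested. Median depth was 22277 and 29866 UMIs in the lowest bin and 13075 and 15440 UMIs in the highest; its part in these ratios was not tested.

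**Figure D3:**
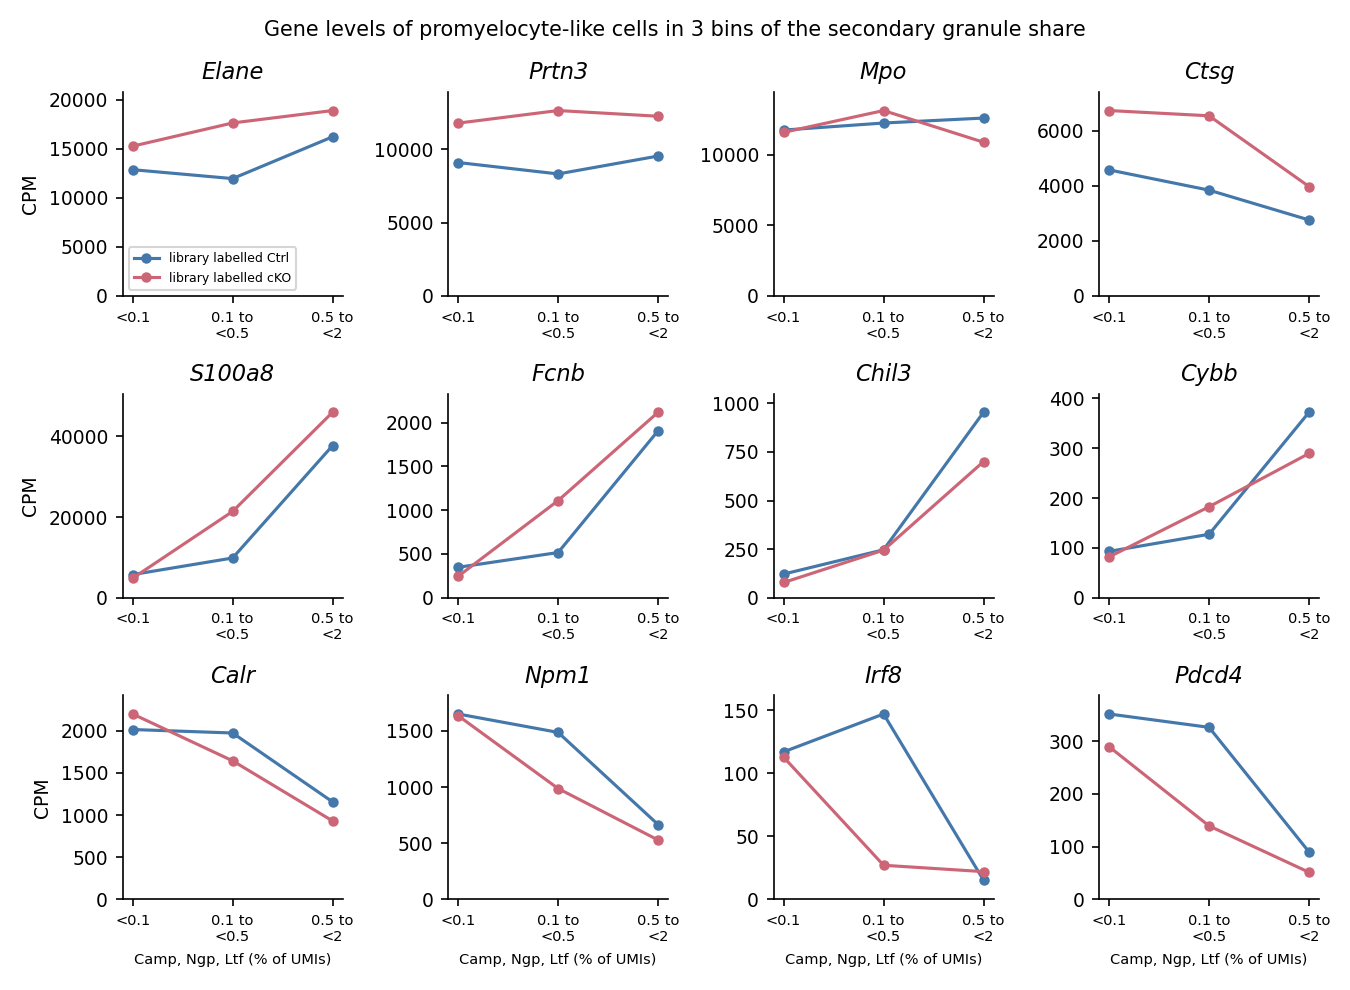
Level in CPM of 12 genes in the promyelocyte-like cells of 3 bins of the summed Camp, Ngp and Ltf share (x axis, percent of UMIs), with 1 line for each library. S100a8, Fcnb, Chil3 and Cybb climb from left to right in both lines, Calr, Npm1 and Pdcd4 descend, and Elane and Prtn3 change little.

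A minority of the cells leaned to monocytes. Cells with at least 3 UMIs of 12 monocyte-side genes and more of these than of 10 neutrophil-side genes were 109 of 713 (15.3%, 12.7 to 18.1) and 63 of 517 (12.2%, 9.49 to 15.3). They sat at the edge of the rule, with a median primary granule share of 2.36% and 2.53%, against 4.02% and 5.07% in the other promyelocyte-like cells. Of 2738 genes, 2.48% were past 2-fold higher in them in both libraries and 2.85% past 2-fold lower. Irf8 stood at 619 and 470.1 CPM in them and 23.6 and 21.4 CPM in the rest, and Ly86 at 161 and 192 CPM (rest 6.86 and 6.41 CPM). Both genes belong to the list that chose the cells. Outside it, S100a10, which codes for an annexin partner, had log2 ratios of 2.80 and 3.14, and Fabp5, a fatty acid binding protein gene, 2.57 and 2.72.

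On the neutrophil side the leaning cells were low beyond the genes of the choice. Elane stood at 6831 and 8548 CPM in them (log2 ratios -1.02 and -1.02 to the rest) and Mpo at 9639 and 8431 CPM (-0.38 and -0.56). Of 15 other primary granule genes, 9 were past 2-fold lower and 1 higher, where 2.85% and 2.48% of all genes were. That list includes Gstm1, which also helped to choose the leaning cells, so this count is not free of the choice. Cd63, a membrane protein of azurophil granules, stood at 115 and 118 CPM (rest 1019 and 1082 CPM), and S100a8 at 1859 and 1673 CPM (rest 12569 and 13357 CPM). Vcam1 stood at 5.07 and 3.11 CPM in the leaning cells against 163 and 87.0 CPM in the rest. Cebpe, 1 of the choosing genes, had log2 ratios of -2.60 and -3.51. The endoplasmic reticulum list did not set them apart, with 1.55% of UMIs in both libraries against 1.55% and 1.63% in the rest. The share of promyelocyte-like cells was 8.33% and 10.1% of kept barcodes without the leaning cells.

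Most of the cells held transcripts of dividing cells. With all UMIs, 652 of 713 (91.4%, 89.1 to 93.4) and 447 of 517 (86.5%) held at least 2 Mki67 and Top2a UMIs, the genes of the Ki-67 antigen and of topoisomerase II alpha. Only 23 and 20 cells held none. The cells with none had a median of 7970 and 12755.5 UMIs, so this split followed depth. After thinning to 2000 UMIs, at least 2 of these UMIs were found in 43.3% (39.7 to 47.1) and 28.0%, and none in 32.0% and 45.6%. The other kept barcodes gave 32.7% and 19.9% on the same scale, and the cycling secondary granule cells, chosen to hold 2 such UMIs before thinning, 67.0% and 59.7%. The thinned share was lower in the library labelled cKO in the promyelocyte-like cells and also in the other kept barcodes.

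Along the bins of secondary granule share, each library is read on its own. In the library labelled Ctrl the thinned share was 49.6% (42.9 to 56.3) in the lowest, 39.0% (34.2 to 44.0) in the middle and 46.7% (36.1 to 57.5) in the highest bin, and the intervals overlap. In the library labelled cKO it was 22.4% (17.8 to 27.5), 35.1% (27.5 to 43.4) and 38.5% (26.7 to 51.4). There the interval of the lowest bin ends just under that of the middle bin and overlaps that of the highest. Over all promyelocyte-like cells, those whose S and G2/M genes reached 1% of all UMIs were 51.3% and 30.2%. Mki67 itself stood at 478 and 270.0 CPM and Top2a at 407 and 259 CPM, log2 ratios of -0.82 and -0.65, and in the other kept barcodes the ratios were -1.02 and -1.07. Whether the lower cycling share belongs to these cells or to the whole library cannot be told apart with 1 library for each condition.

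**Figure D4:**
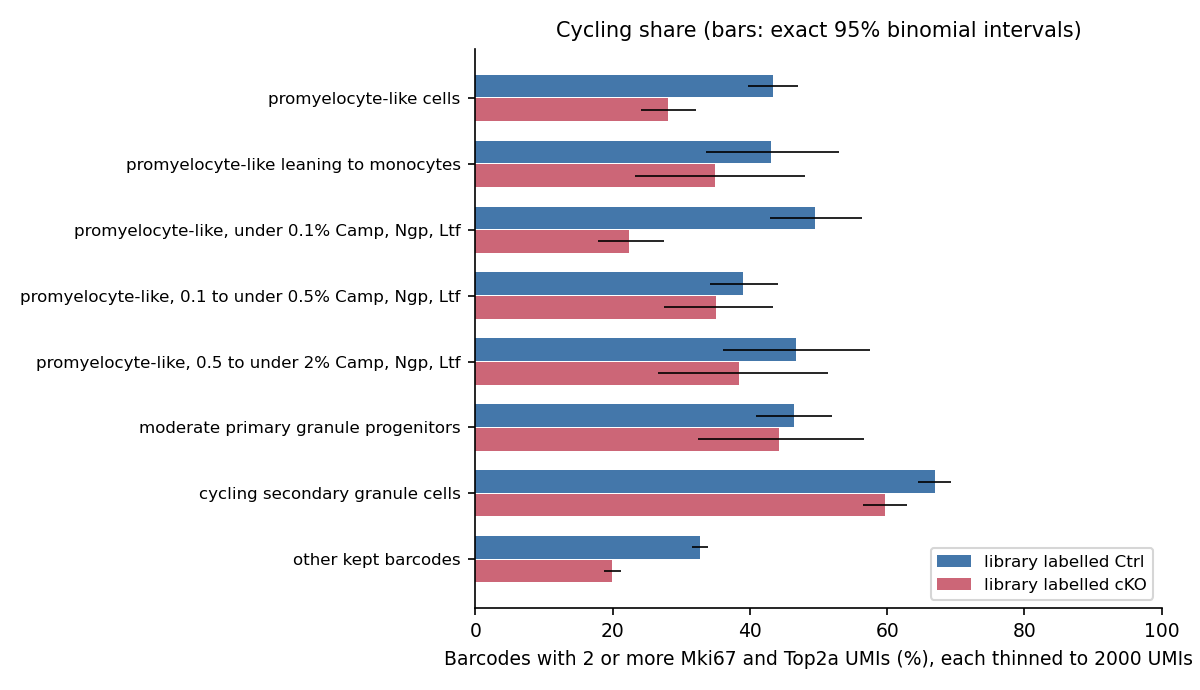
Percent of barcodes with at least 2 Mki67 and Top2a UMIs after thinning each to 2000 UMIs, for the promyelocyte-like cells, their subsets and 3 other sets, with 1 bar for each library and exact 95% binomial intervals. The promyelocyte-like cells reach 43.3% and 28.0%, and the other kept barcodes 32.7% and 19.9%.

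Cycling cells differed from the cells at 0 in G2/M and histone genes. Of 2560 genes, 2.3% (59) were past 2-fold higher in both libraries and 0.0391% (1) past 2-fold lower. Of 25 measured G2/M genes, 20 were past 2-fold higher and all 25 had ratios above 0, and of 17 histone and chromatin genes 9 were past 2-fold higher. Hist1h3c stood at 400.4 and 233 CPM (cells at 0 23.3 and 3.80 CPM), Hist1h1b at 513 and 413 CPM (cells at 0 37.3 and 26.6 CPM), and Ube2c, which drives the exit from mitosis, at 221 and 212 CPM (cells at 0 28.0 and 26.6 CPM). Pclaf, a partner of PCNA, had log2 ratios of 3.20 and 3.37. These ratios rest on few UMIs in the cells at 0, 5 and 1 for Hist1h3c and 6 and 7 for Pclaf. In the split of thinned cells given below, the log2 ratios were 2.18 and 1.83 for Hist1h3c and 1.27 and 1.37 for Pclaf. Genes of the S phase list, which leaves out Hist1h3c, Hist1h1b and Pclaf, moved less, with 2 of 23 past 2-fold higher. Their median log2 ratio was 0.19 and 0.27, which is no measure of all S phase transcripts.

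Each of the 4 rule genes differed by less than 2-fold across this split, and 3 of them had ratios under 0 in both libraries. The rule bounds their sum from below on both sides of the split, so these ratios are not free of it. Elane had log2 ratios of -0.12 and 0.07 between cycling cells and cells at 0, Prtn3 -0.14 and -0.08, Mpo -0.35 and -0.26 and Ctsg -0.00 and -0.16, and none of 14 other primary granule genes passed 2-fold in both libraries. The lowest ratio by the rule for naming was that of Ccnd2, a D cyclin, at -0.58 and -0.86. Since the cells at 0 were few and shallow, the split was repeated on the thinned cells, with 228 and 236 cells at 0 and 309 and 145 with 2 or more. There 48 of 2750 genes (1.75%) were past 2-fold higher and 0 lower, among them 17 of 29 G2/M genes and 10 of 17 histone and chromatin genes. None of 20 genes of the S phase list passed 2-fold there, and their median log2 ratio was -0.26 and 0.15, under 0 in the library labelled Ctrl. The other primary granule genes had a median log2 ratio of -0.03 and -0.12 in that split. Both sides differ in Mki67 and Top2a by construction.

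Of the neighbouring stages the later one was taken as 1477 and 953 cycling secondary granule cells, with at least 2% Camp, Ngp and Ltf and at least 2 Mki67 and Top2a UMIs. Of 2714 genes, 32.6% were past 2-fold higher in the promyelocyte-like cells in both libraries and 9.54% past 2-fold lower, with a median log2 ratio of 0.62 and 0.70. Camp, Ngp and Ltf alone had a median share of 10.4% of the neighbour's UMIs in both libraries, which lowers the CPM of every other gene there. Against that background, all 16 measured ribosome biogenesis genes, 30 of 38 endoplasmic reticulum genes and 14 of 17 translation factors were past 2-fold higher. Srm, the gene of spermidine synthase, was at 139 and 156 CPM (neighbour 9.88 and 8.38 CPM), Calr at 1915 and 1981 CPM (neighbour 175 and 123 CPM), and Phgdh, the first enzyme of serine synthesis, at 147 and 179 CPM (neighbour 12.7 and 7.99 CPM). Ribosomal protein genes took 26.6% and 30.1% of UMIs here and 8.77% and 9.69% there.

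Past 2-fold lower in the promyelocyte-like cells than in that neighbour were 15 of 16 measured secondary granule genes outside the rule and 7 of 11 gelatinase and late genes. Over all genes tested, 9.54% were past 2-fold lower and 32.6% higher. Lcn2 stood at 299.5 and 336 CPM (neighbour 10309 and 14563 CPM), Cd177 at 44.2 and 45.7 CPM (neighbour 1325 and 1496 CPM) and Lyz2 at 377 and 449 CPM (neighbour 7948 and 10399 CPM). Elane was still found in the neighbour's summed UMIs at 2260.0 and 2532 CPM and Mpo at 1256 and 932 CPM. These sums do not describe its typical cell. The share of Elane, Prtn3, Mpo and Ctsg together had a median of 0.0686% and 0.0586% in the neighbour, with single cells as high as 10.1% and 6.28%. In the Cd79-positive barcodes the median was 0.102% and 0.0289%. The neighbour's median lay above that background only in the library labelled cKO. Of 35 measured G2/M genes, 33 had ratios under 0 and 8 were past 2-fold lower in the promyelocyte-like cells, while of 23 S phase genes 5 were past 2-fold higher and 1 lower. The neighbour was chosen on 2 of the G2/M genes.

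The earlier neighbour was taken as 319 and 70 progenitors with moderate primary granule RNA, from 0.5% to under 2%, less than 2% Camp, Ngp and Ltf and at least 2 Kit and Cd34 UMIs. Of 2979 genes, 3.36% were past 2-fold higher in the promyelocyte-like cells in both libraries and 2.58% past 2-fold lower. Of 15 other primary granule genes, 11 were past 2-fold higher and none lower, and of 9 measured secondary granule genes 5 were higher and none lower. Fcnb stood at 576 and 575 CPM (progenitors 35.1 and 13.1 CPM). Pglyrp1, a peptidoglycan recognition protein gene of secondary granules, had log2 ratios of 2.56 and 3.10. Vcam1 stood at 4.15 CPM in the progenitors of the library labelled Ctrl, a log2 ratio of 5.04, and had no UMI in the 70 progenitors of the library labelled cKO, where the log2 ratio was at least 5.39 against a floor of 3 counts over the set. Gfi1 stood at 29.6 and 27.3 CPM in the progenitors and Cebpe at 57.1 and 41.5 CPM, both under the promyelocyte-like level. Of 38 endoplasmic reticulum genes none passed 2-fold, and 31 had ratios above 0 in both libraries, with a median log2 ratio of 0.31 and 0.33; the list took 1.31% and 1.30% of the progenitors' UMIs.

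Lower than in the progenitors were genes of alternative fates. Of 8 measured monocyte-side genes 7 were past 2-fold lower and none higher, as were 5 of 8 stem and progenitor genes and 4 of 4 measured mast cell, eosinophil and basophil genes. Over all genes tested, 2.58% were past 2-fold lower and 3.36% higher. Cpa3, a mast cell and basophil protease gene, stood at 5.71 and 1.46 CPM (progenitors 125 and 198 CPM), Sox4 at 52.2 and 34.9 CPM (progenitors 231 and 174 CPM) and Ccr2 at 33.9 and 31.4 CPM (progenitors 149 and 174 CPM). Cd34, 1 of the genes that chose the progenitors, stood at 49.9 and 34.8 CPM (progenitors 236 and 234 CPM). The progenitors were chosen on few genes and could be a mix of cells bound for several fates, with Mcpt8 at 220 and 425 CPM. Whether these ratios reflect such a mix or a step along 1 path was not tested. Of 17 ribosome biogenesis genes 15 had ratios under 0, with a median log2 ratio of -0.44 and -0.65, and none passed 2-fold. By its median ratio that list was thus highest in the progenitors, lower in the promyelocyte-like cells and lowest in the cycling secondary granule cells.

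The study compared marrow with and without Map4k4, a kinase upstream of stress-activated kinases, in the course of neutrophil formation. The share of promyelocyte-like cells among kept barcodes was 9.83% (9.16 to 10.5) in the library labelled Ctrl and 11.5% (10.6 to 12.4) in the library labelled cKO, a difference of 1.63 points (0.476 to 2.81) by counting error alone. The direction depended on the thresholds: the difference was -2.51 points (-4.04 to -0.98) with a floor of 5000 UMIs, -0.253 points (-1.53 to 1.04) with a primary granule threshold of 1% and 3.72 points (2.80 to 4.66) with one of 4%. The size of the other sets, such as 468 and 40 Cd79-positive barcodes, and the mixing of c-Kit+ cells also enter this share.

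Few genes were past 2-fold between the libraries in the promyelocyte-like cells. Of 3007 genes with at least 50 CPM in 1 library, 3 (0.0998%) were past 2-fold higher in the library labelled cKO and 22 (0.732%) past 2-fold lower. The median log2 ratio of all genes was -0.15, and scaling by the median of ratios in place of the total raised each ratio by 0.27, after which 9 genes were past 2-fold higher and 9 lower. With 1 library for each condition there is no replicate check on any of these ratios.

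The 3 genes past 2-fold higher were Ifitm1, Fdps and Dmkn. Ifitm1, an interferon-induced membrane protein gene, stood at 23.7 CPM in the library labelled Ctrl and 158 CPM in the library labelled cKO, a log2 ratio of 2.74 (95% interval 2.56 to 2.92). In the other kept barcodes its ratio was 2.69. Fdps, which codes for farnesyl diphosphate synthase of the isoprenoid pathway, stood at 119.6 and 274 CPM, a log2 ratio of 1.20 (95% interval 1.11 to 1.28), with 0.98 in the other barcodes. Of the 19 genes on the cholesterol and isoprenoid list 2 reached the level needed, and Fdps was the only one of them past 2-fold. Dmkn, whose RNA was concentrated in the promyelocyte-like cells, had a log2 ratio of 1.03 (95% interval 0.95 to 1.11), with 0.53 in the other barcodes. Of the genes that reached 100 CPM in either library, those next below the 2-fold line were Tspo, at 0.93, Gm11808, at 0.88, and Dbi, at 0.73; Dbi codes for a ligand of the mitochondrial membrane protein that Tspo encodes.

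The 22 genes past 2-fold lower included 2 kinds, grouped here after their values were seen. Haemoglobin and immunoglobulin genes, of red cells and plasma cells, were 5 of them: Hbb-bs at 202 and 6.08 CPM, Hba-a1, Hba-a2, Igha at 224 and 12.2 CPM, and Igkc. Immunoglobulin UMIs had a median of 10 and 3 for each cell. Mitochondrial transcripts mt-Nd4l (log2 ratio -2.10) and mt-Nd5 (-1.13) were 2 more, with -2.53 and -1.14 in the other barcodes. Of the others, Cep350 had a ratio of -1.04 here and -0.92 in the other barcodes, Cenpf -1.07 and -1.12, Atrx -1.01 and -1.35, and Syne1 -1.22 and 0.01. Nuclear RNAs such as Malat1, Neat1 and Xist took 1.31% of UMIs in the library labelled Ctrl and 0.735% in the library labelled cKO, and their part in these ratios was not tested. Ltf, a gene of the rule, was at 214 and 106 CPM here, with a ratio of 0.58 in the other barcodes. Tex2 (-1.46), Fgd4 (-1.30), Slfn9, Ttc3, Megf9, Vps13c, Macf1, Gm20342, Gm8797 and Fosb made up the rest.

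**Figure D5:**
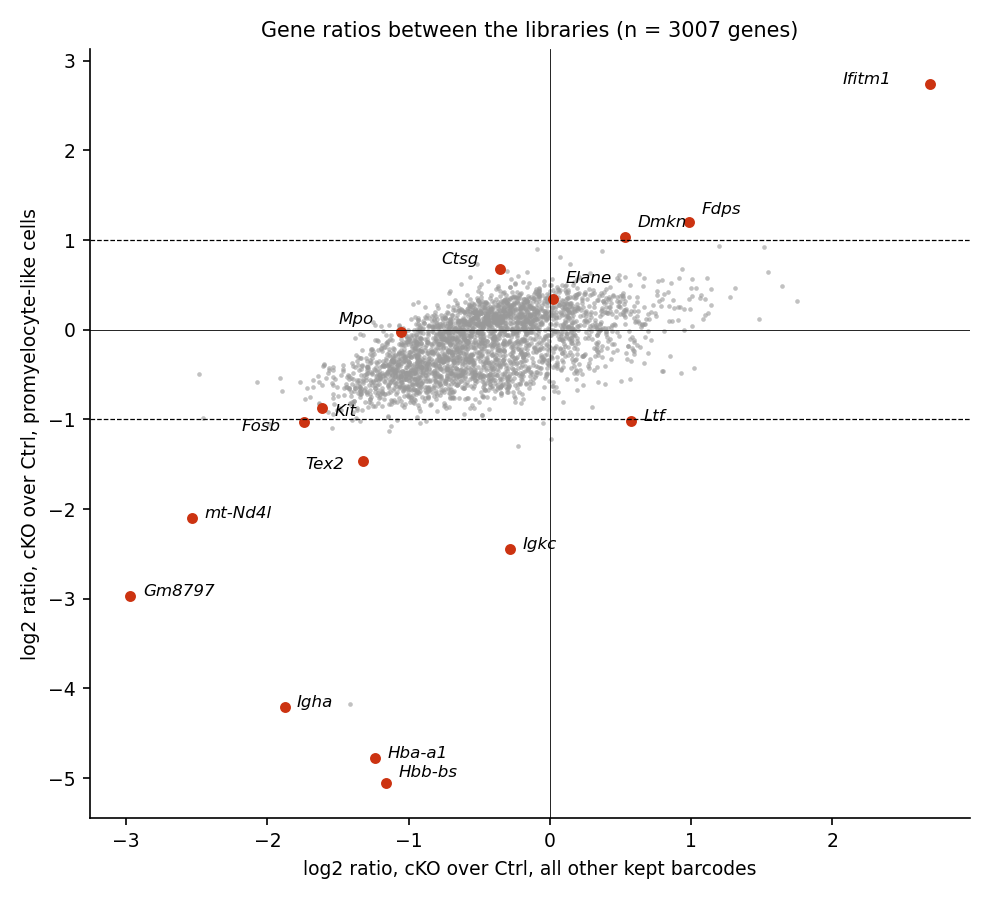
Log2 ratio of the library labelled cKO over the library labelled Ctrl for 3007 genes in the promyelocyte-like cells (y axis) against the same ratio in all other kept barcodes (x axis), with dashed lines at 2-fold. Ifitm1 and Fdps are high on both axes, Gm8797 and mt-Nd4l low on both, while Ltf and Ctsg lie on opposite sides of 0 on the 2 axes.

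The primary granule genes lay above the median of all genes. Elane had a log2 ratio of 0.34 (95% interval 0.33 to 0.35), Prtn3 of 0.46 (95% interval 0.45 to 0.47) and Ctsg of 0.68 (95% interval 0.67 to 0.70). Mpo had a ratio of -0.03 (95% interval -0.04 to -0.02), which turned to 0.24 under median-of-ratios scaling. In the other kept barcodes the ratios of Elane, Prtn3, Ctsg and Mpo were 0.02, 0.06, -0.35 and -1.05. Of 14 other primary granule genes 12 had ratios above 0 and none passed 2-fold, with a median of 0.22, as in Hp (0.57), Nkg7 (0.47) and Gstm1 (0.39). The rule bounds the sum of the 4 genes from below in both libraries, so their ratios here are not free of it.

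Progenitor and early response genes lay under the median of all genes. The 4 measured stem and progenitor genes had ratios under 0 and a median of -0.61, with Myb at -0.63 (95% interval -0.68 to -0.58) and Kit at -0.87. Kit UMIs were found in 21.9% (18.9 to 25.1) and 11.0% (8.46 to 14.0) of thinned cells. No share in cells that should lack Kit is given here, so free RNA is not set apart in these values. In the other kept barcodes the ratios of Myb and Kit were -1.68 and -1.61. All 8 measured immediate early genes had ratios under 0, with a median of -0.53 and 1 past 2-fold lower, Fosb at -1.03. Over all genes tested, 0.732% were past 2-fold lower. Jun stood at 369.7 and 229 CPM and Fos at 294 and 199 CPM. These genes respond within minutes to handling and stress, and the handling of the cells cannot be told apart from the genotype with 1 library each.

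Nuclear genes of the respiratory chain and genes of glycolysis also lay above the median of all genes. Of 30 measured nuclear genes of the respiratory chain 28 had ratios above 0, with a median of 0.21, and of 12 glycolysis genes 9, with a median of 0.28, led by Gapdh at 1407 and 2022 CPM. The 11 measured mitochondrially encoded genes had a median of -0.21, with none past 2-fold higher and 2 lower, where 0.0998% and 0.732% of all genes were. Of 38 endoplasmic reticulum genes 19 had ratios above and 19 under 0. S phase genes had a median of -0.21 and G2/M genes of -0.27, with 0 and 1 past 2-fold lower, against -0.15 over all genes. Of the factors, Gfi1 had a ratio of -0.49 (95% interval -0.59 to -0.38), Cebpe of 0.05 (95% interval -0.03 to 0.13) and Irf8 of -0.49 (95% interval -0.60 to -0.38). Without the monocyte-leaning cells the ratio of Irf8 was -0.14, and as a mean over cells -0.77.

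The genes that the study follows beyond Map4k4 differed widely in level. Stat5a stood at 24.6 and 21.3 CPM and Stat5b at 29.8 and 17.1 CPM, log2 ratios of -0.21 (95% interval -0.45 to 0.03) and -0.80 (95% interval -1.05 to -0.56). Myc stood at 132 and 99.8 CPM (-0.41), Pdcd4 at 314 and 239 CPM (-0.39), Acin1, a gene tied to chromatin condensation in apoptosis, at 229.6 and 177 CPM (-0.38), Prelid1, of mitochondrial lipid transfer, at 172 and 222 CPM (0.37) and Rpl11, a ribosomal protein gene that also restrains Mdm2, at 2916 and 3383 CPM (0.21). In the other kept barcodes the ratios of Myc, Pdcd4 and Rpl11 were -1.61, -1.60 and -0.46. Under median-of-ratios scaling the ratios of Myc, Pdcd4 and Acin1 in the promyelocyte-like cells were -0.14, -0.13 and -0.11. Those of Prelid1 and Rpl11 were 0.63 and 0.48. Of the 39 apoptosis genes listed, 9 reached the level needed and none was past 2-fold, with a median of -0.22; Bax stood at 78.2 and 94.9 CPM and Mcl1 at 76.7 and 54.9 CPM. Xist was at 807 and 609 CPM, and of 4 Y-linked genes Ddx3y, Eif2s3y and Uty had no UMI in the cells of either library. The value of the remaining Y-linked gene is not given here.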

How the data were processed

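Raw UMI counts for each gene and barcode were deposited by the authors as 1 filtered matrix for each library, made from a 3′ single-cell platform with Cell Ranger 5.0.0 and the mm10 genome (GRCm38), per the submitters' processing notes. The authors filtered on detected genes and mitochondrial share and removed doublets with DoubletFinder. The deposited matrices were not filtered that way, and no doublet caller was run here. The matrices held 10220 barcodes with 71527701 UMIs (Ctrl) and 6872 with 64393950 (cKO). Barcodes were kept and cells chosen as the report states. UMIs were summed over the cells of each set, scaled to CPM and compared as log2 ratios with exact binomial intervals, and shares got exact Clopper-Pearson intervals, all for counting error only. A gene entered a comparison with at least 50 CPM on 1 side and was past 2-fold at a log2 ratio of 1 or more, within each library for comparisons inside libraries. No label gave a batch. Thinning drew 2000 UMIs from each cell once. Genes were named by these rules: the rule genes and markers, the 10 highest and 10 lowest ratios among genes with at least 100 CPM, the most abundant or changed genes of each list, and genes the study follows, and a few further examples were chosen after their values were seen. The members and lists were chosen with earlier results of these data known. Ltf was taken off the list of secondary granule genes outside the rule because the rule uses it. Gene coordinates came from GENCODE (GRCm38) and promoters from RefSeq (GRCm38.p6). Python 3.11.15, numpy 2.4.6, scipy 1.17.1, pandas 2.3.3 and matplotlib 3.10.9 were used. Tested on simulated counts for 2720 genes of the comparison of the libraries, 94.85% of the 95% intervals held the true ratio. All 200 changed genes were recovered (100%). The simulated counts held counting error only, without spread between cells or libraries, and the changed genes were set past the 2-fold line. The simulation therefore checks the calculation and says nothing on the spread of real libraries. Alternatives were other UMI floors, thresholds, CPM minimums and scalings, thinning and leaving out subsets of cells. Values of a few listed genes are not reported here.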

Additional observations from a re-analysis of the deposited data

Results flagged for a closer look

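Barcodes under the floor of 2000 UMIs that otherwise met the rule were not used in any comparison, and they numbered 43 of 2713 (1.58%) in the library labelled Ctrl and 52 of 2209 (2.35%) in the library labelled cKO, with a median depth of 1428 and 1077 UMIs. They carried the same 4 primary granule genes at 2% or more, at a depth at which a few UMIs decide the share. Sod1, the gene of cytosolic superoxide dismutase, lay on opposite sides of the other kept barcodes in the 2 libraries, with a log2 ratio of -0.64 in the library labelled Ctrl and 0.63 in the library labelled cKO. The difference was not tested, since there was 1 library for each condition.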

How the results depend on the processing

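No paired analysis was possible because each condition had 1 library and no result came from a test. The share of promyelocyte-like cells was 9.83% and 11.5%. It was 8.50% and 10.2% with a floor of 1000 UMIs, 15.2% and 12.7% with one of 5000, 13.7% and 13.4% with a primary granule threshold of 1%, 4.29% and 8.01% with one of 4%, 8.59% and 10.02% with a secondary granule ceiling of 0.5%, 8.33% and 10.1% without monocyte-leaning cells, and 9.16% and 10.4% without barcode sequences that were promyelocyte-like in both libraries, an alternative chosen after seeing the data. The difference turned to -2.51 points with the floor of 5000 and -0.253 points with the threshold of 1%, and was 3.72 points with that of 4%. The share with at least 2 Mki67 and Top2a UMIs (91.4% and 86.5%) was 43.3% and 28.0% after thinning, 96.8% and 96.1% at 1 UMI, and 93.5% in the library labelled Ctrl with the floor of 5000, and a cut of 1% on S and G2/M genes gave 51.3% and 30.2%. Between the libraries, genes past 2-fold higher and lower (3 and 22) were 9 and 9 with median-of-ratios scaling, 5 and 12 with totals without mitochondrial, ribosomal, haemoglobin, immunoglobulin and primary granule genes, and 6 and 45 from 20 CPM, and 5 were lower from 200 CPM. Mpo reversed to a log2 ratio of 0.24 under median-of-ratios scaling. The 1 gene past 2-fold lower in cycling cells became 0 after thinning, without monocyte-leaning cells and with the floor of 5000. Against the other kept barcodes, 78 genes were higher and 70 lower from 200 CPM. Fewer genes enter from 200 CPM and fewer cells under a higher floor; for the other settings the cause was not tested. Of the remaining values, 36 summary values and 74 values of single genes moved by less than their counting interval or 1.5 times, and 39 of single genes moved further. Of these, 2 whose intervals hold 0 changed sign: Stat5a, from -0.21 to 0.06 under median-of-ratios scaling, and Cebpe, from 0.05 to -0.04 in cells under 0.1% Camp, Ngp and Ltf, a subset chosen after seeing the data.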

Other observations

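Of 15 measured genes of the phagocyte oxidase and of peroxide handling, 1 was past 2-fold higher and 1 lower than in the other kept barcodes in both libraries, where 7.57% and 10.2% of all genes were. Against the moderate primary granule progenitors 3 were past 2-fold higher and none lower, where 3.36% and 2.58% of all genes were. Prdx5, a peroxiredoxin gene, stood at 757 and 904 CPM (progenitors 244 and 239 CPM), and Cyba, which codes for a membrane subunit of the oxidase, at 471 and 704 CPM (progenitors 191 and 242 CPM). Along the bins of secondary granule share Cyba was higher at the far end, with log2 ratios of 1.11 and 1.32, while Prdx1 had ratios of -1.28 and -1.02. Between the libraries 11 of the 15 had ratios above 0, with a median of 0.26 against -0.15 over all genes and none past 2-fold.

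Interferon-induced genes differed from one another. Of the 24 on the list 6 reached 50 CPM in the promyelocyte-like cells, of which 4 had ratios above 0 and 2 below, with 1 past 2-fold higher. Over all 3007 genes compared between the libraries, 0.0998% were past 2-fold higher and 0.732% lower. Ifitm1 stood at 23.7 and 158 CPM in the promyelocyte-like cells, at 225 and 812 CPM in the moderate primary granule progenitors and at 110.4 and 713 CPM in all other kept barcodes, higher in the library labelled cKO in each. Ifitm2 stood at 422 and 659 CPM and Ifitm3 at 101 and 150.3 CPM, log2 ratios of 0.64 and 0.57. Ly6e had 607 and 597 CPM and Bst2 78.6 and 84.5 CPM, with ratios of -0.02 and 0.10. Of the 20 genes on the list of MAP kinase pathway genes 4 reached 50 CPM and none was past 2-fold, with Mapk14, which codes for p38 alpha, at 91.2 and 65.5 CPM.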
